A study of Mus musculus with 31 samples.

Results

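The oxytocin and vasopressin system is described here by 5 genes, chosen by name as peptides and receptors of social behaviour. They are the peptide genes Oxt and Avp, the receptor genes Oxtr and Avpr1a, and Cd38, and they are 5 of the 25497 genes to which the counts were summed. All 5 passed the filter on low counts that left 14886 genes to test.

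Oxytocin and vasopressin are neuropeptides made mainly by large neurosecretory neurons of the paraventricular and supraoptic nuclei of the hypothalamus, which lies beneath the thalamus, and vasopressin is also made in the suprachiasmatic nucleus and in a few forebrain cell groups. Each peptide is cut from a precursor that also carries its carrier protein, a neurophysin. The receptors encoded by Oxtr and Avpr1a couple to Gq proteins and raise intracellular calcium, and they are made by scattered neurons in many brain areas that the peptides reach. CD38 is a membrane enzyme that makes cyclic ADP-ribose from NAD, and mice that lack it release less oxytocin. Pmch, the gene of melanin-concentrating hormone, and Hcrt, the gene of the orexins, mark neurons of the lateral hypothalamus. They were read beside the peptide genes in every library because a dissected thalamus borders the hypothalamus.

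The samples were bulk thalamus of adult mouse offspring at postnatal day 90, with 1 library per animal. The mothers either underwent social isolation rearing (SIR) or were housed as controls. There were 7 SIR male libraries against 8 of control males, and 8 SIR female libraries against 8 of control females. The labels name no treatment of the offspring themselves, and strain, litter and batch are not given in the sources used here. Animals of 1 litter could not be recognised, so the p-values cover no more than the spread among the animals sampled.

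Library totals ran from 13 to 25.7 M estimated counts (M, mega), with a median of 23.3 M. The thalamic genes Prkcd (584 to 1484 TPM), Tcf7l2 (188 to 351 TPM) and Slc17a6 (156 to 282 TPM) were present in all 31 libraries, where TPM is a share of all transcripts, corrected for transcript length. The library numbers of the SIR animals (320 to 432) all lay below those of the controls (554 to 746), so handling by number range and maternal housing cannot be told apart. The library SIR female 5 went against its label and held 41.6 CPM (counts per M, scaled by library size) of the Y-linked Ddx3y, against 31.5 to 50.2 CPM in the 15 male libraries and at most 0.048 CPM in the other 15 female libraries. It was kept under its label, and without it too edgeR called 0 of the 25 tests of the 5 genes.

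Oxt and Avp lie next to each other on mouse chromosome 2, on opposite strands and with their 3′ ends facing. Oxtr lies on chromosome 6, Avpr1a on chromosome 10 and Cd38 on chromosome 5. The promoters of the peptide genes are shown because the peptides are the members that varied most between libraries, and because both genes varied together. They are RefSeq sequences on GRCm38.p6 from 250 bases before to 50 bases after the start, written 5′ to 3′ on the strand of the gene, for Oxt at chr2:130575919-130576218 (plus strand) and for Avp at chr2:130582539-130582838 (minus strand). Capitals mark 3 motifs: the nuclear receptor half-site TGACC on either strand (GGTCA where it lies on the other strand), the E-box CACGTG, and the TATA-like CATAAA on the strand of the gene.
Oxt promoter: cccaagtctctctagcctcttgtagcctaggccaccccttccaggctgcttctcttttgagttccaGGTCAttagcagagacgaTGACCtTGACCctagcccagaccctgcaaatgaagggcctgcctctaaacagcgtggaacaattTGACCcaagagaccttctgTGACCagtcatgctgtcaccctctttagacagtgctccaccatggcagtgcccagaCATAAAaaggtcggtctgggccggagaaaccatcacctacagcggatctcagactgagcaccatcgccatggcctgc
Avp promoter: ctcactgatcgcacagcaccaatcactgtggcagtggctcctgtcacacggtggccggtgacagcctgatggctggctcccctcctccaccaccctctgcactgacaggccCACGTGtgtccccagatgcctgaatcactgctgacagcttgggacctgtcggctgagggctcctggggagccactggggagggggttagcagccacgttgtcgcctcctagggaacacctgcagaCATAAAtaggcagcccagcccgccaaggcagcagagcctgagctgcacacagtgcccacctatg

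The Oxt window held 5 matches to TGACC, at 184, 166, 160, 102 and 83 bases before the start, and the Avp window held 0. At least 1 match was found in 40.5% of 32544 promoters of the same length, and 5 or more in 0.0953%. The Avp window held 1 CACGTG, at 139 bases before the start, a motif found in 7.17% of promoters, and the Oxt window held 0. Both windows held CATAAA, which 6.54% of promoters hold, at 27 bases before the start in Oxt and at 14 bases in Avp. The motifs do not overlap each other in these windows, and a match is a description of the letters only.

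The transcripts of the peptide genes also share sequence, which bears on their counts. The longest run of bases common to both, 127 bases in the part that encodes the neurophysin, is shown because reads inside it cannot be placed by sequence alone.
Run shared by the Oxt and Avp transcripts: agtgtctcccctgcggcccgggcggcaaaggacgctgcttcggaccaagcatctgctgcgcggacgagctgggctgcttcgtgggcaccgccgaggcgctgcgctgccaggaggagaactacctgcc

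It covers positions 156 to 282 of the 537-base Oxt transcript and positions 144 to 270 of the 577-base Avp transcript. Of the 31-base windows, 19.1% of those in Oxt and 17.7% of those in Avp were shared. The sum of the Oxt and Avp estimated counts was a whole number, within 0.01, in 31 of 31 libraries, while the Oxt estimate alone was whole in 4. A part of the reads was thus divided between both genes by estimation, and low values of either gene in a library rich in the other are uncertain.

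On the length-corrected scale, Oxt had the highest mean level of the 5 genes, at 431 ± 361 TPM (SD, n = 31), with a range of 0.537 to 1108 TPM. Avp followed at 119 ± 101 TPM, with a range of 0.877 to 357 TPM. Cd38 had 6.33 ± 1.26 TPM, Oxtr 1.71 ± 0.847 TPM and Avpr1a 0.926 ± 0.681 TPM (SD, n = 31). The ranges of each pair of neighbours in this order overlapped. By comparison, Pmch averaged 208 ± 151 TPM and Hcrt 91.4 ± 126 TPM. In control male 19 Oxt was the gene with the 67th highest TPM, and in the library where it was lowest it ranked 14421.

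The levels of the peptide genes differed far more between libraries than those of most genes. The coefficient of variation of CPM over the 31 libraries was 83.3% for Oxt and 84.4% for Avp, against a median of 11.8% over the tested genes. It was 70.6% for Avpr1a, 46.2% for Oxtr and 21.1% for Cd38, and 70.1% for Pmch and 136% for Hcrt. Of the tested genes, 98.9% varied less than Oxt, 99.0% less than Avp, 98.4% less than Avpr1a, 93.6% less than Oxtr and 75.6% less than Cd38.

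Within the groups, Oxt, the oxytocin precursor gene, had a lowest, median and highest level of 0.872, 59.4 and 151 CPM in SIR males, against 13.9, 102 and 194 CPM in control males. In SIR females the same values were 1.94, 145 and 180 CPM, against 0.096, 3.49 and 135 CPM in control females. The control females thus held the lowest library and the lowest median of the 4 groups, and every group overlapped the others. Oxt was under 2 CPM in 6 libraries, of which 1 was a SIR male, 1 a SIR female and 4 were control females, with 0 among control males. It was above 70 CPM in 3 of 7 SIR males, 5 of 8 control males, 7 of 8 SIR females and 2 of 8 control females.

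Avp, the vasopressin precursor gene, had a lowest, median and highest level of 1.12, 20.3 and 76.0 CPM in SIR males, against 0.661, 37.6 and 55.9 CPM in control males. In SIR females these were 1.54, 29.2 and 41.8 CPM, against 0.192, 1.26 and 46.5 CPM in control females. As for Oxt, the control females had the lowest median, and 5 of their 8 libraries lay at 1.36 CPM or less. All groups overlapped. By TPM, Oxt exceeded Avp in 25 libraries and was below it in 6. The ratio of Oxt to Avp TPM had a median of 4.13 and ran from 0.502 in SIR male 4 to 25.1 in control male 16. That highest ratio rests on 16.2 estimated counts of Avp, and the next, 14.7 in control male 23, on 16.1, so both are uncertain.

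**Figure D1:**
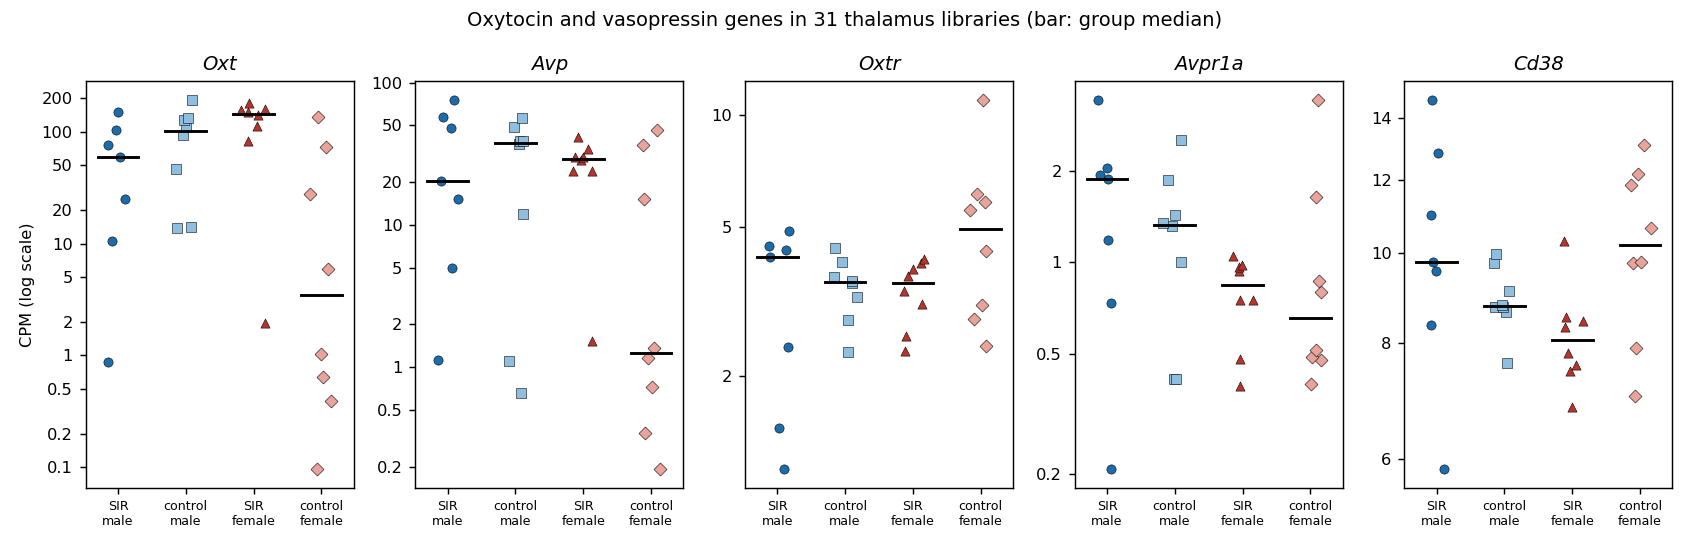
Level of each of the 5 genes in CPM on a log scale, with 1 point per library in 7 SIR male, 8 control male, 8 SIR female and 8 control female libraries; the black bar is the group median. Oxt and Avp spread over more than a power of 10 inside every group, with 4 control female libraries under 2 CPM of Oxt, while Cd38 stays between 5.85 and 14.6 CPM.

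In females, the fitted Oxt level was higher in SIR than in control libraries by a log2 fold change of 1.99 ± 0.91 (SE), which did not pass the test (edgeR quasi-likelihood, adjusted p = 0.211, unadjusted p = 0.0367). For Avp in females the log2 fold change was 1.05 ± 0.86 (adjusted p = 0.530, edgeR). Of the SIR female libraries, 7 of 8 were above the control female median of Oxt and 8 of 8 above that of Avp. In males the log2 fold change, SIR minus control, was -0.59 ± 0.91 for Oxt (adjusted p = 0.810, edgeR) and 0.13 ± 0.85 for Avp (adjusted p = 0.966, edgeR). The effect in males minus that in females was -2.58 ± 1.28 for Oxt on the log2 scale (adjusted p = 0.340, edgeR) and -0.92 ± 1.21 for Avp (adjusted p = 0.793, edgeR).

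An exact permutation test compared the mean log2 CPM within each sex. This is another measure than the edgeR fold change of fitted means, and libraries with few counts weigh more in it. Control females 24, 26, 29 and 31 held 8, 15, 2 and 13 counts of Oxt. In females the difference was 4.22 for Oxt (2-sided exact p = 0.0134) and 2.86 for Avp (2-sided exact p = 0.0284), without adjustment for the 10 member tests made this way. Without SIR female 5 the female difference was 4.16 for Oxt (exact p = 0.0236) and 2.83 for Avp (exact p = 0.0458). In males it was -1.15 for Oxt (exact p = 0.311) and 0.26 for Avp (exact p = 0.830). Without SIR female 5, edgeR gave a female log2 fold change of 2.01 for Oxt (adjusted p = 0.250) and 1.07 for Avp (adjusted p = 0.571). The numbers of 8 libraries stand apart from the rest of their housing. They are SIR male 1, SIR females 2 and 3, control males 27 and 28, and control females 29, 30 and 31. Oxt was at 160 and 180 CPM in these SIR females and at 0.096, 5.94 and 1.04 CPM in these control females. Without the 8 libraries the female log2 fold change was 1.18 for Oxt (adjusted p = 0.754, edgeR) and 0.39 for Avp (adjusted p = 0.933, edgeR). Without control female 20 that of Avp was 1.72 (adjusted p = 0.258, edgeR), and with Pmch and Hcrt as covariates it was 2.22 (adjusted p = 0.118, edgeR), while that of Oxt was 2.60 (adjusted p = 0.106, edgeR). In bulk tissue, fewer cells of a type and less RNA per cell cannot be told apart.

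Over the 25 tests of the 5 genes in 5 comparisons, edgeR called 0 at an adjusted p under 0.05. For SIR against control with both sexes, 0 of 5 genes were called, against 4.55% of the 14886 tested genes, and 0 had an unadjusted p under 0.05. In males 0 of 5 were called, against 1.33% of tested genes, with 0 at an unadjusted p under 0.05. In females 0 of 5 were called, against 4.62% of tested genes, with 3 at an unadjusted p under 0.05 (Oxt, Oxtr and Cd38). Of all 14886 tested genes, 3283 had an unadjusted p under 0.05 with both sexes, 2622 in males and 2978 in females.

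For the male minus female effect of SIR 0 of 5 were called, against 2.83% of tested genes, with 1 (Cd38) at an unadjusted p under 0.05. Of the 14886 tested genes, 2284 had such an unadjusted p. For males against females over both housings 0 of 5 were called, against 10.1% of tested genes, with 1 (Avpr1a) at an unadjusted p under 0.05. Here 3957 of the 14886 tested genes had an unadjusted p under 0.05. DESeq2 and limma-trend on log2(TPM + 1) also called 0 of 5 in each comparison. Their counts at an unadjusted p under 0.05 were those of edgeR, except that limma-trend had 2 for the difference between the effects and 0 for males against females.

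**Figure D2:**
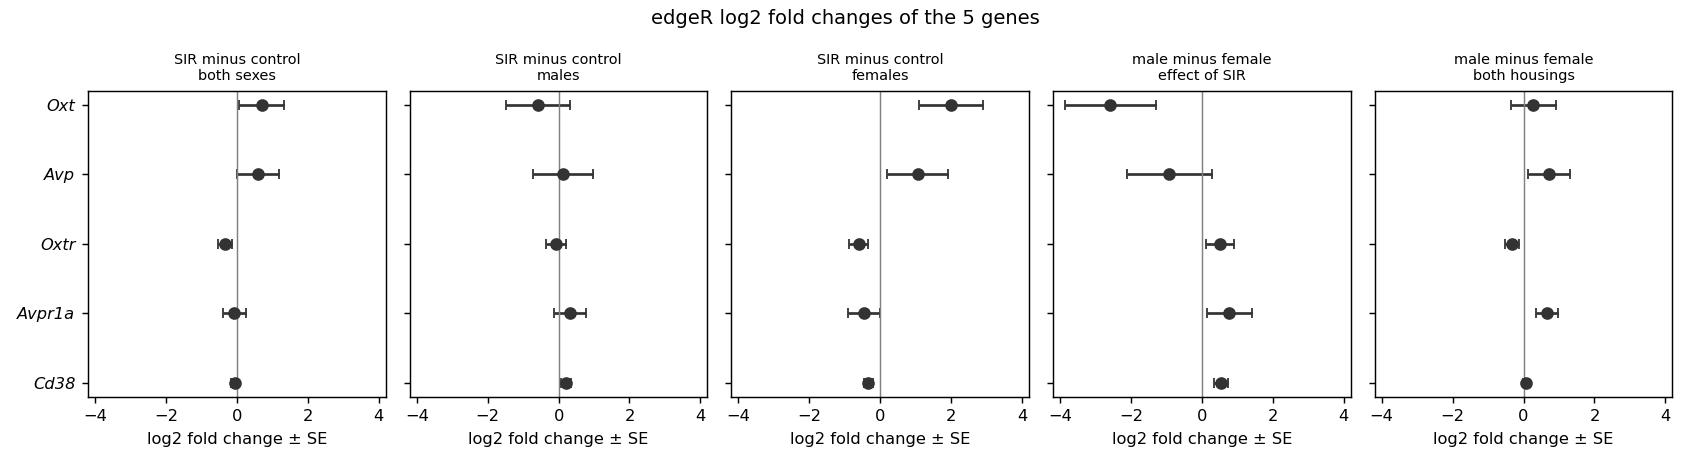
Fitted log2 fold changes from edgeR (points) with their SE (bars) for the 5 genes, in 1 panel per comparison; positive values are higher in SIR, in the male effect or in males, and the line marks 0. The female log2 fold change of Oxt, at 1.99 ± 0.91, is the largest among the SIR against control panels, and the bars of Oxt and Avp are wider than those of Oxtr, Avpr1a and Cd38.

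The lateral hypothalamic genes varied between the libraries in another order than Oxt. Pmch had a lowest, median and highest level of 1.37, 79.6 and 153 CPM in SIR males, against 15.4, 53.9 and 102 CPM in control males, and of 1.29, 32.9 and 87.6 CPM in SIR females, against 9.95, 39.4 and 124 CPM in control females. Hcrt had 0.415, 42.4 and 96.3 CPM in SIR males, against 2.55, 22.3 and 92.2 CPM in control males, and 0.234, 3.19 and 61.4 CPM in SIR females, against 0.731, 3.43 and 113 CPM in control females. The groups overlapped for both genes. In females the log2 fold change was -0.35 ± 0.59 for Pmch (adjusted p = 0.795, edgeR) and -0.76 ± 1.01 for Hcrt (adjusted p = 0.728, edgeR), where the estimates for Oxt and Avp were above 0. Neither passed the test in any of the 5 comparisons.

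The following libraries were chosen after their values were seen, as examples in which Oxt and Pmch differ widely, and do not describe the others. SIR female 12 held 149 CPM of Oxt with 1.29 CPM of Pmch and 0.234 CPM of Hcrt, and SIR female 3 held 180 CPM of Oxt with 13.4 CPM of Pmch. At the other end, control female 29 held 0.096 CPM of Oxt, from 2 counts, with 44.7 CPM of Pmch, and SIR female 11 held 1.94 CPM of Oxt with 44.9 CPM of Pmch. In the 6 libraries with under 2 CPM of Oxt, Pmch ranged from 1.37 to 44.9 CPM. The ratio of Oxt to Pmch TPM ran from 0.0031 in control female 29 to 163 in SIR female 12, with a median of 1.36. Control female 26 had a ratio of 0.0246 and control female 24 one of 0.0577, both below the 0.0621 of SIR female 11. Oxt was the higher of the pair in 20 of 31 libraries.

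**Figure D3:**
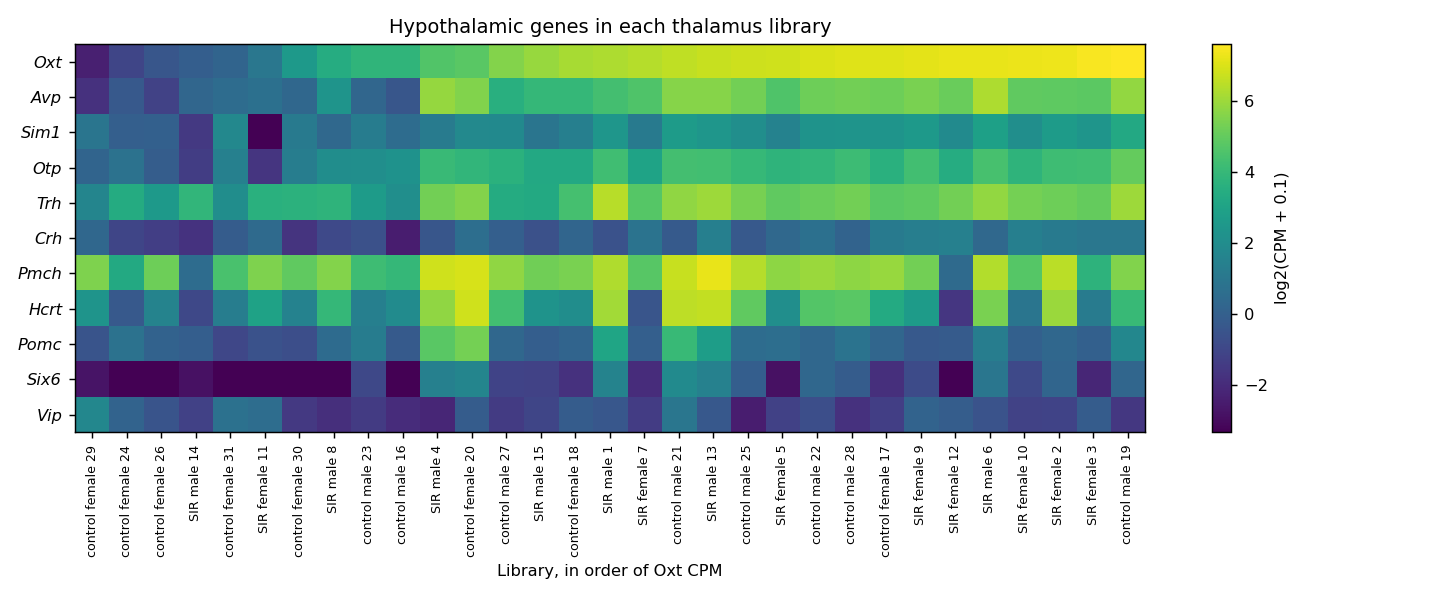
Level of 11 hypothalamic genes, as log2(CPM + 0.1) by colour, in each of the 31 libraries ordered by Oxt CPM, with 1 row per gene. Avp and Otp brighten along with Oxt, while Pmch is at 44.7 CPM in control female 29, at the low end of Oxt, and at 1.29 CPM in SIR female 12, near its high end.

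Across the 31 libraries, 12 relations between log2 CPM values were computed, and p-values from 100000 permutations were adjusted over the 12. Oxt and Avp had a Spearman rho of 0.73 (permutation p = 1e-05, the smallest the permutations can give, adjusted p = 3e-05) and a Pearson r of 0.90 (adjusted permutation p = 3e-05), which was 0.87 without the 2 libraries farthest from the median of Avp. Oxt with Pmch had a rho of 0.25 (permutation p = 0.169, adjusted p = 0.184) and an r of 0.30 (adjusted permutation p = 0.0881), which was 0.38 without the 2 libraries farthest in Pmch. Oxt with Hcrt had a rho of 0.23 (permutation p = 0.203, adjusted p = 0.203) and an r of 0.37 (adjusted permutation p = 0.0450), which was 0.49 without the 2 farthest in Hcrt. After subtraction of the group means both relations of Oxt passed the test by rank, with a rho of 0.37 for Pmch (adjusted permutation p = 0.0467) and 0.45 for Hcrt (adjusted permutation p = 0.0159). Pmch and Hcrt, by contrast, had a rho of 0.95 (adjusted permutation p = 3e-05) and an r of 0.86.

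Avp was related to the lateral hypothalamic genes by rank. With Pmch it had a rho of 0.63 (permutation p = 0.00013, adjusted p = 0.000312) and an r of 0.41 (adjusted permutation p = 0.0299), and with Hcrt a rho of 0.60 (permutation p = 0.00045, adjusted p = 0.0009) and an r of 0.51 (adjusted permutation p = 0.00822). Without the 2 libraries farthest on the x axis, r was 0.59 for both pairs. The difference between these coefficients and those of Oxt was not tested.

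The same relations were also computed within parts of the range, which lowers a coefficient by construction. The widest gap between neighbouring libraries was 1.64 on the log2 scale for Avp, with 9 libraries below it and 22 above. Within the 9 low libraries Oxt and Avp had a rho of 0.40 (permutation p = 0.291, unadjusted) and an r of 0.52, and within the 22 high libraries a rho of 0.31 (permutation p = 0.165, unadjusted) and an r of 0.54.

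For Oxt the widest gap was 1.57, with 6 libraries below and 25 above. Oxt with Pmch had a rho of 0.14 in the 6 low libraries (permutation p = 0.801) and -0.031 in the 25 high ones (permutation p = 0.883). Avp with Pmch had a rho of 0.05 in its 9 low libraries (permutation p = 0.911) and 0.48 in its 22 high libraries (permutation p = 0.0240, unadjusted). Avp with Hcrt had a rho of -0.17 in the 9 low libraries (permutation p = 0.677) and 0.49 in the 22 high ones (permutation p = 0.0214, unadjusted). These splits were chosen after the values were seen.

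**Figure D4:**
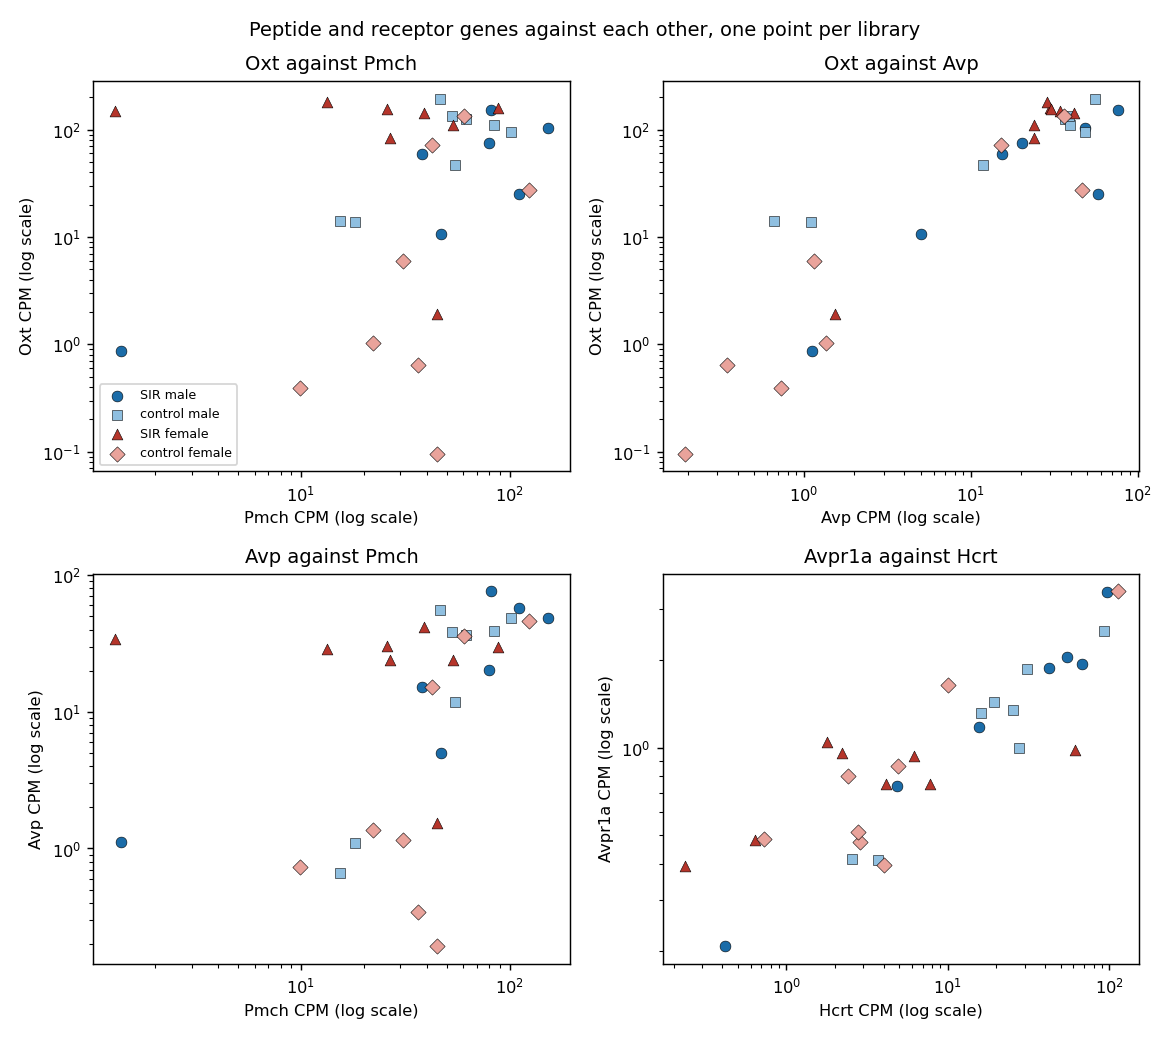
Levels in CPM, both axes on log scales, of Oxt against Pmch, Oxt against Avp, Avp against Pmch and Avpr1a against Hcrt, with 1 point per library and the 4 groups by marker and colour. Oxt and Avp form a low and a high set, Oxt and Pmch have a rho of 0.25, and Avpr1a and Hcrt have a rho of 0.85.

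The genes whose pattern was most like that of Oxt were ranked by Spearman rho over the 31 libraries after subtraction of the 4 group means, among 14120 genes with a proper symbol, as a description. For Oxt they were Otp (rho 0.91), a transcription factor of developing hypothalamic neurosecretory neurons, Ucn3 (0.85), which encodes urocortin 3, Avp (0.85), Cckar (0.84), a cholecystokinin receptor, and Npffr1 (0.83), a neuropeptide FF receptor. Sim1, another transcription factor of these neurons, ranked 11 (rho 0.79), Hcrt ranked 728 (rho 0.45) and Pmch ranked 1285 (rho 0.37). Otp had a median of 16.9 CPM in SIR males and 14.9 CPM in control males, and of 13.5 CPM in SIR females and 2.50 CPM in control females, the lowest of the 4 groups as for Oxt. For Avp the nearest genes were Ecel1 (0.93), an endopeptidase-like gene, Scn9a (0.91), a sodium channel, Stk32a (0.90), a kinase, Npffr1 (0.90) and Otp (0.90).

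The list of 9 markers of paraventricular and supraoptic neurosecretory neurons contains Oxt and Avp, and without them 0 of 7 were called in any comparison. Of all tested genes, 1.33% to 10.1% were called by comparison, so 0 of 7 lies near the share of all genes. The median log2 fold change of these 7 in females was 0.61, against -0.01 over all tested genes, and in males it was -0.08. Their summed level had a range of 210 to 387 CPM in SIR males, 219 to 380 CPM in control males, 229 to 335 CPM in SIR females and 237 to 371 CPM in control females, and none of the 7 was at 0 in every library. Arnt2, a transcription factor needed for these neurons that many other cells also express, was the most abundant of the 7 at 81.4 TPM. Trh, the gene of thyrotropin-releasing hormone, averaged 39.8 TPM and had a female log2 fold change of 0.87 ± 0.55 (adjusted p = 0.396, edgeR). The part of dissected hypothalamic tissue in the levels of Oxt and Avp was not tested.

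Of the 6 libraries in which Avp exceeded Oxt by TPM, 4 held at most 1.36 CPM of Avp, and the others were SIR male 4 and control female 20. SIR male 4 held 57.7 CPM of Avp and 25.1 CPM of Oxt, and control female 20 held 46.5 CPM of Avp and 27.5 CPM of Oxt. These libraries had the highest levels of Pomc, the gene of an arcuate nucleus peptide precursor, at 27.5 and 39.3 CPM. Six6, a transcription factor of the suprachiasmatic list, was at 2.63 CPM in SIR male 4 and 3.03 CPM in control female 20. It was higher, at 3.67 CPM, in control male 21, where Oxt (94.1 CPM) exceeded Avp (48.5 CPM). Vip, another hypothalamic gene read in every library, was at 0.123 CPM in SIR male 4 and 0.792 CPM in control female 20. Its highest level, 3.27 CPM, was in control female 29, the library with the lowest Avp (0.192 CPM). Without Avp, 5 of the 7 suprachiasmatic list genes were tested and 0 were called in the SIR comparisons, where 1.33% to 4.62% of all tested genes were called. Their median log2 fold changes were 0.07 in males and -0.63 in females.

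Oxtr, the oxytocin receptor gene, was low but measured in every library. It had a lowest, median and highest level of 1.12, 4.15 and 4.89 CPM in SIR males, against 2.31, 3.56 and 4.39 CPM in control males, and of 2.33, 3.53 and 4.10 CPM in SIR females, against 2.39, 4.94 and 11 CPM in control females. The estimated counts behind these levels ran from 27.1 to 236 per library. The groups overlapped, although 0 of 8 SIR females lay above the control female median of 4.94 CPM. The female log2 fold change was -0.60 ± 0.27 (adjusted p = 0.201, unadjusted p = 0.0334, edgeR), and without control female 20, the library with 11 CPM, it was -0.34. Without SIR female 5 it was -0.54 (adjusted p = 0.304, edgeR). In males the log2 fold change was -0.08 ± 0.29 (adjusted p = 0.931, edgeR).

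The exact permutation test of Oxtr in females gave a difference of -0.46 in mean log2 CPM (2-sided exact p = 0.109), and without SIR female 5 one of -0.39 (exact p = 0.193). The counts of Oxtr were divided between 2 protein-coding transcripts, with 58.1% on the longer and 41.9% on the shorter. Oxtr with Pmch had a rho of 0.45 (adjusted permutation p = 0.0222) and with Hcrt a rho of 0.43 (adjusted permutation p = 0.0247). Its nearest genes were Mthfd2l (rho 0.88), a mitochondrial folate enzyme, Hcrtr2 (0.87), an orexin receptor, the serotonin receptors Htr1b (0.87) and Htr2a (0.86), and Gpr26 (0.86), an orphan receptor. Otp ranked 2651 for Oxtr (rho 0.34).

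Avpr1a, the vasopressin receptor gene of the brain and liver, was the lowest of the 5 genes, with 5 to 79 estimated counts per library. It had a lowest, median and highest level of 0.208, 1.88 and 3.43 CPM in SIR males, against 0.413, 1.33 and 2.53 CPM in control males, and of 0.391, 0.843 and 1.049 CPM in SIR females, against 0.396, 0.657 and 3.45 CPM in control females. SIR females spanned the narrowest range of the 4 groups, and all groups overlapped. The log2 fold change was 0.32 ± 0.44 in males (adjusted p = 0.779, edgeR) and -0.46 ± 0.46 in females (adjusted p = 0.621, edgeR). In females it had the opposite sign, 0.10, without control female 20, and was -0.45 without SIR female 5. Between males and females over both housings the log2 difference was 0.66 ± 0.32 (adjusted p = 0.179, edgeR), and without control female 20 it was 0.94 (adjusted p = 0.0259, edgeR).

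Avpr1a had higher rank coefficients with the lateral hypothalamic genes than Oxtr or Cd38. It had a rho of 0.85 with Pmch and 0.85 with Hcrt (adjusted permutation p = 3e-05 for each), and r was 0.78 and 0.87. Without the 2 farthest libraries r was 0.80 and 0.86. The differences from the other genes' coefficients were not tested. Its nearest genes after group means were Baiap3 (rho 0.85), which acts in dense core vesicle release, Gpx3 (0.85), a glutathione peroxidase, Arhgap6 (0.84), a GTPase-activating gene, Hcrt itself (0.84) and Gpr101 (0.84), an orphan receptor. With Pmch and Hcrt as covariates, the log2 difference of Avpr1a between males and females was -0.19 (adjusted p = 0.694, edgeR), the opposite sign to that without them.

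The other vasopressin receptors were at or near 0. Avpr1b, the pituitary-type receptor gene, had at most 3 counts in a library and 0 in 24 of 31. Avpr2, the kidney-type receptor gene, had 0 counts in all 31 libraries, where a count of 0 allows up to 3 counts, or 0.117 to 0.231 CPM by library for counting error only. Neither passed the filter on low counts.

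Cd38 was the steadiest member. It had a lowest, median and highest level of 5.85, 9.79 and 14.6 CPM in SIR males, against 7.62, 8.78 and 9.99 CPM in control males, and of 6.82, 8.06 and 10.3 CPM in SIR females, against 7.02, 10.2 and 13.1 CPM in control females. Of the SIR females 1 of 8 was above the control female median, and of the SIR males 5 of 7 were above the control male median, while the groups overlapped in both sexes. The female log2 fold change was -0.33 ± 0.13 (adjusted p = 0.141, unadjusted p = 0.0163, edgeR), and the exact permutation test gave a difference of -0.31 in mean log2 CPM (2-sided exact p = 0.0292, unadjusted). Without SIR female 5 these were -0.32 (adjusted p = 0.205, edgeR) and -0.30 (exact p = 0.0476). In males the log2 fold change was 0.20 ± 0.13 (adjusted p = 0.456, edgeR).

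For Cd38, the effect in males minus that in females was 0.54 ± 0.19 on the log2 scale (adjusted p = 0.124, unadjusted p = 0.00748, edgeR). Without SIR male 14, the library with the lowest Cd38, it was 0.64 and passed the test (adjusted p = 0.0271, edgeR), and without SIR female 5 it was 0.52 (adjusted p = 0.153, edgeR). SIR male 14 was also the lowest SIR male for Oxt, Avp, Oxtr, Avpr1a, Pmch and Hcrt. Without the 8 libraries numbered apart, the female log2 fold change of Cd38 was -0.14 and the difference between the effects 0.28 (adjusted p = 0.802 and 0.554, edgeR).

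Cd38 had a rho of 0.31 with Pmch (adjusted permutation p = 0.104) and 0.34 with Hcrt (adjusted permutation p = 0.0805). By r both relations passed the test, at 0.50 with Pmch (adjusted permutation p = 0.00822) and 0.37 with Hcrt (adjusted permutation p = 0.0450). Without the 2 farthest libraries r was 0.30 and 0.27, and neither passed. On log2(TPM + 0.1) the rho was 0.41 with Pmch (adjusted permutation p = 0.0278) and 0.43 with Hcrt (adjusted permutation p = 0.0257). Its nearest genes, Smad4 (rho 0.72), Atp13a4 (0.66), Max (0.66), Zc3hav1l (0.64) and Map3k2 (0.63), followed it less closely than the nearest genes of the other members followed theirs, and Otp ranked 4916 (rho 0.10). Nearly all of its counts, 99.9%, were on 1 protein-coding transcript.

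Other genes of the system came from lists of peptide degradation, peptide processing, Gq signalling and the NAD pathway. Lnpep, the aminopeptidase that degrades oxytocin and vasopressin, fell in SIR offspring with both sexes (log2 fold change -0.24 ± 0.06, adjusted p = 0.0233, edgeR). It had a lowest, median and highest level of 77.6, 91.2 and 99.4 CPM in SIR males, against 98.1, 108 and 133 CPM in control males, and of 85.5, 106 and 118 CPM in SIR females, against 96.1, 112 and 147 CPM in control females. The groups overlapped within each sex. The call did not hold when a length trend was removed or without the 8 libraries numbered apart.

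Of the 10 genes of peptide processing and dense core granules, 1 rose in SIR females and 0 fell, where 4.62% of all tested genes were called. It was Pcsk2, the prohormone convertase that cuts the vasopressin and oxytocin precursors among others, with a log2 fold change of 0.34 ± 0.08 (adjusted p = 0.0127, edgeR) and a level of 563, 636 and 733 CPM (lowest, median and highest) in SIR females, against 428, 506 and 571 CPM in control females. In males its log2 fold change was -0.17 ± 0.08 (adjusted p = 0.277, edgeR), and the difference between the effects, -0.51 ± 0.12, passed the test (adjusted p = 0.0103, edgeR). The median of the 10 genes in females was -0.02, against -0.01 over all tested genes. Between males and females, where 10.1% of all tested genes were called, 2 of the 10 were higher in males, Chga by 0.15 and Scg5 by 0.10 on the log2 scale (adjusted p = 0.00531 and 0.0340, edgeR). The call of Scg5 was lost without any 1 of SIR male 4, SIR male 6, SIR female 10, SIR female 11, control male 16, control male 27 and control female 30, with the length trend removed, with Pmch and Hcrt as covariates, without the 8 libraries numbered apart and by limma-trend. The abundant Cpe, a carboxypeptidase of peptide maturation at a mean of 3491 TPM, was not called in any comparison.

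Of the 18 tested genes of Gq signalling, 0 rose and 1 fell in SIR offspring with both sexes, a share near the 4.55% of all tested genes called. It was Gnaq, the Gq alpha subunit, with a log2 fold change of -0.11 ± 0.03 (adjusted p = 0.0275, edgeR), and the median of the list was -0.04, against -0.01 over all tested genes. The call of Gnaq was lost without any 1 of SIR male 1, SIR male 15, control male 19 and control male 25, with the length trend removed, with no filter on low counts, without the 8 libraries numbered apart, without the 2 shallowest libraries and by limma-trend. Its partner Gna11 was higher in males than in females by 0.10 ± 0.03 (adjusted p = 0.0229, edgeR), a call lost with Pmch and Hcrt as covariates, without the 8 libraries numbered apart and by limma-trend. Among the most abundant of the others, Rgs4, Plcb4 and Prkcb were not called in any comparison. Within either sex alone 0 of the 18 were called, against 1.33% of all tested genes in males and 4.62% in females.

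Of the 9 tested genes of the CD38 and NAD list, 0 rose and 1 fell in SIR offspring with both sexes, and 0 rose and 1 fell in females, where 4.55% and 4.62% of all tested genes were called. Nampt, the rate-limiting enzyme of NAD salvage, had a log2 fold change of -0.15 ± 0.04 with both sexes (adjusted p = 0.0328, edgeR), a call lost without any 1 of SIR female 3, SIR male 15, control male 19, control male 22, control male 25, control female 29 and control female 30. The same settings that ended the call of Gnaq also ended that of Nampt. Ryr2, a ryanodine receptor that cyclic ADP-ribose can open, had a log2 fold change of -0.82 ± 0.20 in females (adjusted p = 0.0175, edgeR). Its level was 24.3, 29.5 and 46.6 CPM in SIR females (lowest, median and highest), against 32.8, 55.5 and 90.4 CPM in control females, with overlap. Ryr3 was lower in males than in females by a log2 difference of -0.43 ± 0.11 (adjusted p = 0.0125, edgeR), a call lost under the same settings as that of Gna11. In females the call of Ryr2 did not hold without the 8 libraries numbered apart, and neither did that of Pcsk2. Both held without SIR female 5 (adjusted p = 0.0313 for Ryr2 and 0.0134 for Pcsk2, edgeR).

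Markers of the midline thalamus and of neighbouring regions also differed between the SIR and control females, where 4.62% of all tested genes were called. Of the 6 midline thalamus genes 2 rose, Calb2 by 0.71 and Necab1 by 0.83 on the log2 scale (adjusted p = 0.00455 and 0.00843, edgeR), and Lypd6b had a log2 fold change of -1.24 (adjusted p = 0.0364, edgeR). The calls of Calb2 and Necab1 did not hold without the 8 libraries numbered apart. The call of Lypd6b did not hold there, without the 2 shallowest libraries, with no filter on low counts, in a fit of only the female groups, or without any 1 of SIR females 3, 5, 7, 9, 10, 11 and 12 and control females 26, 29, 30 and 31. The midline genes had a summed range of 421 to 625.3 CPM in SIR females and 288 to 393 CPM in control females. In males the sums ran the other way, from 225 to 383 CPM in SIR and from 325 to 528 CPM in control libraries. Necab1 had a log2 fold change of -0.79 in males (adjusted p = 0.0317, edgeR). That call was lost in 9 of the 31 fits with 1 library left out.

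Of the 7 lateral hypothalamus genes 1 rose in SIR females, the transcription factor Lhx9 (log2 fold change 0.71, adjusted p = 0.00117, edgeR), while Pmch and Hcrt were not called and had estimates below 0. The median of this list was 0.0027, with 4 of 7 estimates above 0. The effect in males minus that in females was -1.14 for Lhx9 on the log2 scale (adjusted p = 0.000773, edgeR). It was 0.77 for Pmch and 1.31 for Hcrt, neither of them called. For the midline thalamus genes Calb2 and Necab1 it was -0.89 and -1.63 (adjusted p = 0.0099 and 0.0009, edgeR). Of the 6 tested habenula genes 1, Gpr151, had a log2 fold change of 1.88 (adjusted p = 0.0360, edgeR). Its call did not hold without the 8 libraries numbered apart, without the 2 shallowest libraries, with no filter on low counts, or without any 1 of SIR females 2, 3, 7 and 12 and control females 17, 18, 24, 30 and 31. The summed range of the habenula list was 13.3 to 55.2 CPM in SIR females and 12.9 to 37.9 CPM in control females, with overlap.

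Of the 5 tested midbrain monoamine genes 0 rose and 2 fell in SIR females, with a list median of -1.23. Slc6a3, the dopamine transporter gene, had a range of 0.176 to 0.847 CPM in SIR females and 0.293 to 43.1 CPM in control females (log2 fold change -4.52, adjusted p = 0.00655, edgeR). Pax7, a midbrain transcription factor gene, had a range of 0 to 0.0892 CPM in SIR females and 0.357 to 1.6 CPM in control females (log2 fold change -5.17, adjusted p = 0.00716, edgeR). Neither call held without the 8 libraries numbered apart or by limma-trend on log2(TPM + 1), and that of Slc6a3 did not hold by limma-trend on log2(TPM + 0.1). The choroid plexus sum of 9 genes reached 275 CPM in SIR females and 1858 CPM in control females, in control female 20, which also held the highest Oxtr. The part of such regional differences in the values of Oxt, Avp, Oxtr, Avpr1a and Cd38 was not tested.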

How the data were processed

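Each of the 31 deposited tables covers 105878 transcripts and holds, per the file headers, their effective length, estimated count and TPM. Per the labels' protocols, polyadenylated RNA was extracted with a Qiagen kit and made into stranded Illumina libraries. Per the submitters' processing notes, FastQC and kallisto were used with the build GRCm39. The sources used here give neither versions nor kallisto's strand setting. The estimated counts were deposited without normalization as far as the values show, and the authors' TPM values are scaled by the deposited effective length, a score in bases.

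Transcripts were joined to genes by identifier in GENCODE M21 (GRCm38), which matched 104949 (99.12%). The 929 others held 0.689% to 0.755% of a library's counts and were left out. Counts were summed per gene and rounded. Genes kept by filterByExpr (14886) were scaled by TMM and fitted as 4 group means with edgeR 4.0.16 (robust quasi-likelihood, R 4.3.3), which was tested on simulated data. Adjusted p-values are Benjamini-Hochberg over all 14886 genes, with a threshold of 0.05. CPM use TMM library sizes. Log2 CPM use a prior count of 2. Exact 2-sided permutation tests ran within each sex over 6435 (males) or 12870 (females) regroupings. DESeq2 1.42.0 and limma 3.58.1 were alternatives. Other alternatives changed the scaling, filter, length correction, covariates and libraries used.

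The members and lists were chosen with earlier results of these data known. The genes named were the 5 members, Pmch and Hcrt, the 5 nearest genes of each member, and list genes that passed the threshold or were among the 4 most abundant of a list, with only part of the region marker genes printed, and 1 gene of the signalling list is not reported here. Each pair of libraries of a group differed by more than counting noise (chi-square per degree of freedom 5.27 or more), so each library was 1 sample. Coordinates are printed only for RefSeq promoters on their own build. Counting intervals and floors cover counting error only.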

Additional observations from a re-analysis of the deposited data

Results flagged for a closer look

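Of 28 sets of 1 gene in 1 group (the 5 genes, Pmch and Hcrt in 4 groups), 7 held a library that stood apart from the rest of its group. The test was Dixon's on CPM at the 95% level. Its rate of about 1 in 20 by chance holds for normally distributed values, which was not checked here. The sets are also not independent, as Pmch and Hcrt had a rho of 0.95, so the 7 cannot be set against that rate. In control female 20, 4 genes stood apart at the high end: Oxtr at 11 CPM, Avpr1a at 3.45 CPM, Pmch at 124 CPM and Hcrt at 113 CPM. Hcrt also stood apart at 61.4 CPM in SIR female 2 and at 92.2 CPM in control male 21. Avp stood apart at the low end in SIR female 11, at 1.54 CPM.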

How the results depend on the processing

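The 25 results of the 5 genes were recomputed under 14 other settings and with each of 31 libraries left out, which gave 1095 values. Of these 1070 kept their direction and their side of the threshold, 6 passed a threshold that the reported value did not, 19 turned direction and 0 lost a call, since none was made. The causes were not tested. By the exact permutation test, without adjustment, the female difference in mean log2 CPM passed for Oxt (4.22), Avp (2.86) and Cd38 (-0.31). With Pmch and Hcrt as covariates, Oxtr between males and females was -0.71 (adjusted p = 0.0410, edgeR), and the sign turned for Avp in males (-0.066) and between sexes (-0.57), for Avpr1a with both sexes (0.12), in females (0.089) and between sexes (-0.19), and for Oxt between sexes (-0.64). Avp in males was -0.027 without the 2 shallowest libraries. Avpr1a with both sexes was 0.0061 and 0.016 by limma-trend with pseudocounts of 1 and 0.1. With 1 library left out, Avp in males ranged from -0.23 to 0.36, Avpr1a from -0.22 to 0.21 with both sexes, from -0.59 to 0.10 in females and from 0.52 to 0.94 between sexes, Oxtr in males from -0.21 to 0.075, and the difference between the effects on Cd38 from 0.43 to 0.64. From residuals of the group means, Oxt had a rho of 0.37 with Pmch (adjusted permutation p = 0.0467) and 0.45 with Hcrt (adjusted permutation p = 0.0159). Within the 25 libraries with high Oxt the rho was -0.031 with Pmch and -0.032 with Hcrt, and within the 9 with low Avp, Avp had a rho of 0.05 with Pmch and -0.17 with Hcrt. Within the 22 libraries with high Avp, the rho of Avp was 0.48 with Pmch and 0.49 with Hcrt. The count of called genes moved from 678 with both sexes to 0 (2031 genes at an unadjusted p under 0.05) without the 8 libraries numbered apart, to 78 with the length trend removed, and to 1132 by DESeq2. From 198 in males it moved to 0 (2193 at an unadjusted p under 0.05) without control male 22, to 36 with the length trend removed and to 606 by DESeq2. It ranged from 45 to 972 in females, where 688 were called, from 219 to 619 for the difference between the effects, and from 341 to 2200 between sexes. No paired analysis was possible because the groups share no replicate numbers. Depth limits Avpr1a most, with 5 to 79 counts per library, and Oxt and Avp in their lowest libraries, with 2 and 4 counts.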
